A study of Mus musculus with 12 samples.

Results

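The inhibitory co-receptors of B cells and the phosphatases that they recruit were examined as a set of 9 genes: the receptors Cd72, Cd22, Cd5, Fcgr2b, Pirb and Siglecg, and the phosphatases Ptpn6, Ptpn11 and Inpp5d. They were chosen by gene symbol among the 19938 genes that the array platform names through transcript clusters with 1 symbol. A transcript cluster is the set of probes that reports 1 transcribed locus, and each of the 9 genes had a single cluster of its own. The signals came from RNA of cells purified from the bone marrow of mice at 1 month of age. This RNA was hybridised to 12 Affymetrix Mouse Gene ST arrays. The labels on RNA extraction call the cells pro-B cells, the early precursors of the B lineage. There were 3 groups of 4 arrays: wild type (WT), mice heterozygous for loss of Pax5 (Pax5+/-), and mice heterozygous for loss of both genes (Cd72+/-;Pax5+/-). Pax5+/- is shared by both mutant groups, and no group lacked a copy of Cd72 alone. Only the WT arrays have titles that read pro-B cells. Titles of the mutant arrays name precursors of B cells instead and describe them as preleukemic, a word that their cell type label also uses. In both comparisons with WT, a difference in cell population or stage therefore cannot be told apart from genotype. The labels do not give strain, sex, the part of each gene that was deleted, or whether animals were pooled. Nothing in them ties the 4 arrays of a genotype to different animals. The p-values therefore measure only how far these arrays spread, possibly a technical spread, and the number of arrays limits the precision. In bulk RNA of this kind, fewer cells that express a gene and less of its RNA per cell cannot be told apart.

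When a B cell meets antigen, kinases at its antigen receptor start an activating signal. Inhibitory co-receptors carry a short tyrosine motif in their cytoplasmic tail, the ITIM or a relative of it, which becomes phosphorylated and draws in phosphatases that reverse that signal. CD72 binds semaphorin 4D, CD22 and Siglec-G bind sialic acids on glycans, FcγRIIB binds the Fc part of antibodies, and PIR-B binds MHC class I. Pax5, the transcription factor that commits cells to the B lineage, is known to activate Cd72.

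The upstream sequences of the 3 genes that were higher in Pax5+/- than in WT, Cd72, Cd22 and Ptpn6, are shown because these are the members whose levels differed together in that comparison. Each is the run of 250 bases that ends at the base before the annotated gene start, read from RefSeq (build GRCm38.p6) on the strand of the gene, 5′ to 3′. All 3 genes lie on the minus strand, at chr4:43454627-43454876 for Cd72, chr7:30879029-30879278 for Cd22 and chr6:124738710-124738959 for Ptpn6. Capitals mark the core of ETS-family sites, GGAA on either strand, which reads TTCC on the other.
Cd72 upstream: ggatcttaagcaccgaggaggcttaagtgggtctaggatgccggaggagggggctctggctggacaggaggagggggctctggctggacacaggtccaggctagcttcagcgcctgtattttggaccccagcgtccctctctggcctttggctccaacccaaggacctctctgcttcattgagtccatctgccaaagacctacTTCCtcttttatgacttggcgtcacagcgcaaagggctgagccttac
Cd22 upstream: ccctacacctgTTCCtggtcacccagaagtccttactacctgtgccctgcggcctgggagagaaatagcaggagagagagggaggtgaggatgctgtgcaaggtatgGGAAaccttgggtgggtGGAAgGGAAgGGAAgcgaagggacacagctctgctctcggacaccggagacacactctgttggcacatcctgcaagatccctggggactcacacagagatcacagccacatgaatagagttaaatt
Ptpn6 upstream: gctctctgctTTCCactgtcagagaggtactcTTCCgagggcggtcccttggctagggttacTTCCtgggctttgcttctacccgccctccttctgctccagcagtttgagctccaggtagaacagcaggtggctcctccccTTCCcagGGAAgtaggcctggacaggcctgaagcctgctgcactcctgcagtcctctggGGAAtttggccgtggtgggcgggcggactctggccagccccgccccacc

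The Cd72 window held 1 ETS core, 47 to 44 bases before the gene start, against 5 in the Cd22 window and 6 in the Ptpn6 window. Over 32851 windows of the same length upstream of 27025 genes, 93.4% held at least 1 such core, 18.0% at least 5 and 8.69% at least 6. The E-box, CANNTG on both strands, occurred 1 time for Cd72 (CATCTG), 2 times for Cd22 and 1 time for Ptpn6, and in 66.2% of all windows. Cd22 also held a match to the palindrome CCCNNGGG that EBF1 binds, written CCCTGGGG and 48 to 41 bases before the start. Of all windows 11.8% held it, and no other member did. A short core of the Pax5 site, GCNTGAC on both strands, was found in 8.79% of all windows and, among the members, only in that of Ptpn11 (GTCACGC). In the 3 windows shown, no match of one motif shared bases with a match of another. These matches are descriptions of letters and not of binding.

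Cd72 (transcript cluster 10512470, chromosome 4) encodes a C-type lectin-like receptor and is the gene that the label of the third group names as lost in 1 copy. Its log2 signal was 9.29, 8.49, 9.39 and 8.43 on WT arrays 1 to 4, 10.26, 10.27, 10.03 and 10.19 on the Pax5+/- arrays, and 7.52, 7.34, 7.52 and 7.67 on the Cd72+/-;Pax5+/- arrays. Every Pax5+/- array was above every WT array, and every Cd72+/-;Pax5+/- array was below every WT array, so no groups overlapped. The means were 8.90 ± 0.51 for WT, 10.19 ± 0.111 for Pax5+/- and 7.51 ± 0.135 for Cd72+/-;Pax5+/- (SD, n = 4). Cd72 rose 2.44-fold in Pax5+/- over WT, a log2 change of 1.29 (SE 0.192, limma adjusted p = 0.000827). In Cd72+/-;Pax5+/- it was 2.62-fold below WT, a log2 change of -1.39 (-1.80 to -0.97, limma adjusted p = 0.000492). The direct contrast of the mutant groups gave the largest change among the 9 members, 6.39-fold lower in Cd72+/-;Pax5+/- at a log2 change of -2.68 (-3.09 to -2.26, limma adjusted p = 1.41e-06).

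The 4 WT arrays were split for Cd72, arrays 1 and 3 (9.29 and 9.39) standing above arrays 2 and 4 (8.49 and 8.43). With WT arrays 2 and 4 left out, a choice made after the values were seen, the rise in Pax5+/- was 0.85, and with arrays 1 and 3 left out it was 1.73. The same settings gave -1.83 and -0.95 for Cd72+/-;Pax5+/- against WT. The split was not particular to Cd72: the mean of 17 measured markers of pro-B and pre-B cells was 11.58, 10.88, 11.61 and 10.84 on WT arrays 1 to 4, and that of 15 stromal and endothelial markers was 7.88, 7.46, 7.89 and 7.48. On the stromal list the Pax5+/- arrays split too, at 7.66, 7.01, 7.71 and 7.06, while their Cd72 values lay within 10.03 to 10.27. Each group was divided into its 2 closest pairs, a division that always returns pairs. In WT the SD of the difference between arrays was 0.109 and 0.117 within pairs and 0.27 to 0.28 across them. The values were 0.177 and 0.122 against 0.195 to 0.281 in Pax5+/-. In Cd72+/-;Pax5+/- they were 0.117 and 0.125 against 0.128 to 0.183, so pairs hardly stood apart there. When each closest pair was averaged to 1 value, leaving 2 values per group, the fall against Pax5+/- was still called (limma adjusted p = 0.0214). Neither difference from WT was (limma adjusted p = 0.173 and 0.137). The part of these arrays and markers in the result was not tested.

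**Figure D1:**
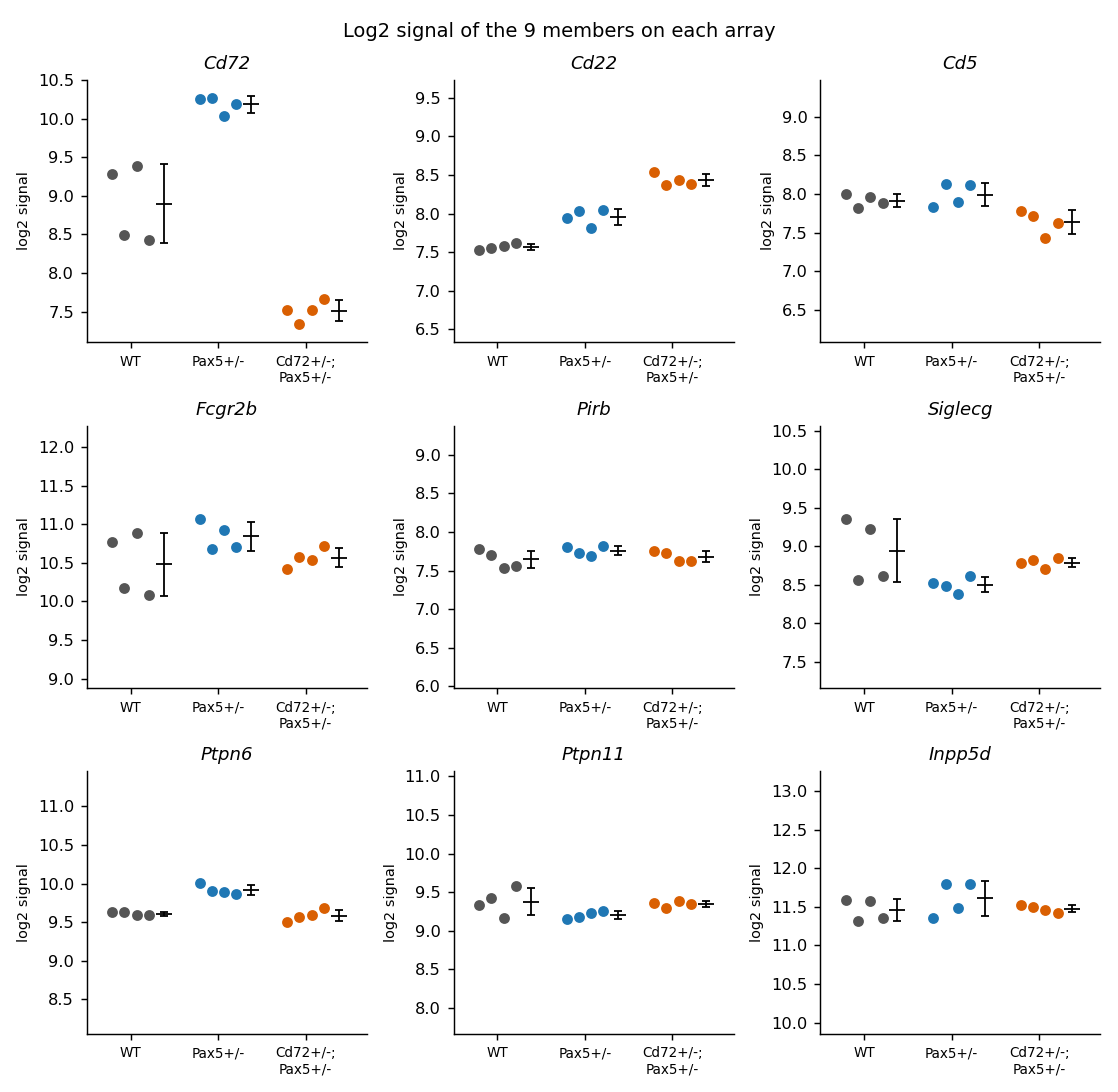
Log2 signal (vertical axis, the same span in each panel) of the 9 members on each of the 12 arrays, by genotype group. Points are arrays in order of replicate 1 to 4, and the bar beside each group is its mean and SD (n = 4). Cd72 separates all 3 groups, at means of 8.90, 10.19 and 7.51, with WT arrays 1 and 3 above WT arrays 2 and 4. Cd22 steps up from WT to Pax5+/- to Cd72+/-;Pax5+/-, and Ptpn6 is higher in Pax5+/- alone.

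Cd22 (10562132, chromosome 7) encodes a sialic acid-binding receptor with several ITIMs. Its signal was 7.53, 7.56, 7.58 and 7.62 in WT, 7.94, 8.03, 7.82 and 8.05 in Pax5+/-, and 8.54, 8.37, 8.43 and 8.38 in Cd72+/-;Pax5+/-. The groups were ordered without overlap, WT lowest and Cd72+/-;Pax5+/- highest, with means of 7.57 ± 0.0377, 7.96 ± 0.105 and 8.43 ± 0.0779 (SD, n = 4). Cd22 rose 1.31-fold in Pax5+/- over WT (log2 change 0.39, SE 0.0585, limma adjusted p = 0.000918). It rose 1.81-fold in Cd72+/-;Pax5+/- over WT (0.86, limma adjusted p = 1.16e-06) and 1.39-fold over Pax5+/- (0.47, limma adjusted p = 0.000157). It was the only member called higher in both comparisons with WT. With the closest pairs averaged the rise over WT in Cd72+/-;Pax5+/- kept its call (limma adjusted p = 0.0163), and the other changes did not (0.122 for Pax5+/- against WT and 0.0583 between the mutant groups). The mean of 12 measured markers of immature and mature B cells, a list that does not hold Cd22, was 6.52 to 6.61 in WT, 6.15 to 6.28 in Pax5+/- and 6.48 to 6.53 in Cd72+/-;Pax5+/-. This mean was thus lowest in Pax5+/-, where Cd22 lay between the other groups. It joins genes that moved in opposite directions. In Cd72+/-;Pax5+/- against WT 2 of the 12 were called higher and 3 lower, against 7.78% of all clusters. Among them Cd74 changed by 1.80 and Ighm by -1.43. In Pax5+/- against WT 0 were called higher and 4 lower, against 7.47%. The part of these markers in the Cd22 result was not tested.

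Cd5 (10466040, chromosome 19), a scavenger-type receptor that dampens antigen receptor signals in T cells and in a subset of B cells, was the other receptor with a call. It read 8.00, 7.82, 7.96 and 7.88 in WT, 7.83, 8.13, 7.89 and 8.12 in Pax5+/-, and 7.78, 7.71, 7.43 and 7.63 in Cd72+/-;Pax5+/-. The Cd72+/-;Pax5+/- arrays were below all others, and WT and Pax5+/- overlapped. Cd5 fell 1.28-fold in Cd72+/-;Pax5+/- against Pax5+/- (log2 change -0.36, SE 0.0876, limma adjusted p = 0.0217). Against WT the value was -0.28 (limma adjusted p = 0.0802), and Pax5+/- against WT gave 0.08 (limma adjusted p = 0.75). The single call ended without Pax5+/- array 2 (limma adjusted p = 0.0637) or 4 (0.0649) or Cd72+/-;Pax5+/- array 3 (0.0646) or 4 (0.0535). It also ended with the closest pairs averaged (0.375) or kept as a random block (0.0561). The mean of 11 measured T-cell markers, Cd5 not among them, was 6.02 to 6.17 over all arrays, and 0 of the 11 were called between the mutant groups by limma, 1 having an unadjusted p under 0.05.

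Fcgr2b, Pirb and Siglecg passed no comparison. Fcgr2b (10360028, chromosome 1), the inhibitory Fc receptor, read 10.77, 10.17, 10.89 and 10.09 in WT, 11.07, 10.68, 10.92 and 10.70 in Pax5+/-, and 10.42, 10.58, 10.54 and 10.72 in Cd72+/-;Pax5+/-. All groups overlapped, WT arrays 2 and 4 were the lowest of the 12, and the changes were 0.36 in Pax5+/- (95% interval 0.00 to 0.72, limma adjusted p = 0.275), 0.09 in Cd72+/-;Pax5+/- against WT (0.865) and -0.28 between the mutant groups (0.376). With WT arrays 1 and 3 left out Fcgr2b was called higher in Pax5+/- (0.71, limma adjusted p = 0.000851) and in Cd72+/-;Pax5+/- (0.43, limma adjusted p = 0.0275), and with arrays 2 and 4 left out the values were 0.01 and -0.26, neither called.

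Siglecg (10552380, chromosome 7), the second sialic acid-binding receptor of the set, read 9.35, 8.56, 9.23 and 8.62 in WT, 8.53, 8.49, 8.38 and 8.61 in Pax5+/-, and 8.78, 8.82, 8.71 and 8.85 in Cd72+/-;Pax5+/-. WT arrays 1 and 3 were again the higher ones, and the mutant groups did not overlap, Pax5+/- being lower. The change in Pax5+/- against WT was -0.44 (95% interval -0.77 to -0.11, limma adjusted p = 0.123). It passed with arrays weighted by quality (-0.57, limma adjusted p = 0.028), without WT array 2 (-0.56, limma adjusted p = 0.0324) and without WT arrays 2 and 4 (-0.79, limma adjusted p = 3.48e-05). Without WT arrays 1 and 3 it was -0.09 (limma adjusted p = 0.525). Between the mutant groups the difference was 0.29 (limma adjusted p = 0.302), and in a fit of those groups alone it was called (limma adjusted p = 0.00873). Cd22 and Siglecg, which bind related ligands, therefore gave unlike values in Pax5+/- against WT, 0.39 and -0.44, though the difference between the genes was not tested.

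Pirb (10559446, chromosome 7), a paired receptor for MHC class I, read 7.78, 7.70, 7.54 and 7.56 in WT, 7.80, 7.73, 7.69 and 7.82 in Pax5+/-, and 7.75, 7.73, 7.62 and 7.62 in Cd72+/-;Pax5+/-. All groups overlapped, and its changes were 0.12, 0.04 and -0.08 for Pax5+/- and then Cd72+/-;Pax5+/- against WT and last between the mutant groups (limma adjusted p = 0.376, 0.846 and 0.517). A further 2 clusters carry Pirb among 6 symbols of its activating relatives, and they had group means of 6.55 to 6.58 and 4.65 to 4.68, with no call. Probes of these near-identical genes may not tell them apart, so the Pirb value is uncertain.

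Among the phosphatases, Ptpn6 (10547769, chromosome 6), which encodes the tyrosine phosphatase that CD72 and CD22 recruit, was called. It read 9.63, 9.63, 9.59 and 9.59 in WT, 10.01, 9.91, 9.89 and 9.87 in Pax5+/-, and 9.50, 9.57, 9.59 and 9.68 in Cd72+/-;Pax5+/-. All 4 Pax5+/- arrays were above the other 8, which overlapped. Ptpn6 rose 1.24-fold in Pax5+/- over WT (log2 change 0.31, SE 0.0487, limma adjusted p = 0.00125) and was 1.26-fold lower in Cd72+/-;Pax5+/- than in Pax5+/- (-0.34, limma adjusted p = 0.000567). Against WT the value in Cd72+/-;Pax5+/- was -0.03, with a 95% interval of -0.13 to 0.08. The calls ended with the closest pairs averaged (limma adjusted p = 0.142 and 0.0936).

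Ptpn11 (10533285, chromosome 5), a related tyrosine phosphatase that also carries positive signals, read 9.33, 9.43, 9.16 and 9.58 in WT, 9.15, 9.18, 9.23 and 9.26 in Pax5+/-, and 9.36, 9.29, 9.38 and 9.35 in Cd72+/-;Pax5+/-. WT overlapped both mutant groups, and the mutant groups did not overlap each other. Its changes were -0.17, -0.03 and 0.14 in the same order (limma adjusted p = 0.241, 0.897 and 0.3). The first was called without WT array 3 (-0.24, limma adjusted p = 0.031) and without WT arrays 1 and 3 (-0.30, limma adjusted p = 0.00451).

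Inpp5d (10348244, chromosome 1) encodes the lipid phosphatase that FcγRIIB recruits. It read 11.59, 11.31, 11.58 and 11.35 in WT, 11.36, 11.79, 11.48 and 11.80 in Pax5+/-, and 11.52, 11.50, 11.46 and 11.42 in Cd72+/-;Pax5+/-. All groups overlapped, and the Pax5+/- arrays were split, arrays 2 and 4 being the highest of the 12. The changes were 0.15, 0.02 and -0.13 (95% intervals -0.07 to 0.37, -0.20 to 0.24 and -0.35 to 0.09), and none was called.

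Counted over the set, 3 of 9 members were called in Pax5+/- against WT, all 3 higher, where 7.47% of the 23410 clusters tested were called, 4.28% higher and 3.2% lower. The same 3 did not overlap between these groups, against 10.7% of all clusters. In Cd72+/-;Pax5+/- against WT 2 members were called, Cd22 higher and Cd72 lower, against 7.78% of clusters, 4.12% higher and 3.66% lower, and 3 did not overlap (Cd72, Cd22 and Cd5), against 14.8%. Between the mutant groups 4 members were called, Cd22 higher and Cd72, Cd5 and Ptpn6 lower in Cd72+/-;Pax5+/-, against 9.79% of clusters, 4.44% higher and 5.35% lower. There 6 members did not overlap, the 4 called ones with Siglecg and Ptpn11, against 18.5%. The median log2 change of the 9 members was 0.15, -0.025 and -0.132 in these comparisons, and that of all clusters -0.005, 0.002 and 0.005. The median size of a change, whatever its sign, was 0.31, 0.09 and 0.29 for the members and 0.07, 0.07 and 0.08 for all clusters. The comparisons share arrays, so their counts are not independent of each other. With the closest pairs averaged 0, 1 and 1 members were called by limma (3, 2 and 4 at an unadjusted p under 0.05), and with the pairs as a random block 3, 2 and 3. Exact two-sided permutation tests of single members gave p = 0.0286, the smallest that 4 arrays against 4 can give, for each pair of groups without overlap, and an adjusted value of 0.0643 over the 27 comparisons, so no single member passed by that test.

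**Figure D2:**
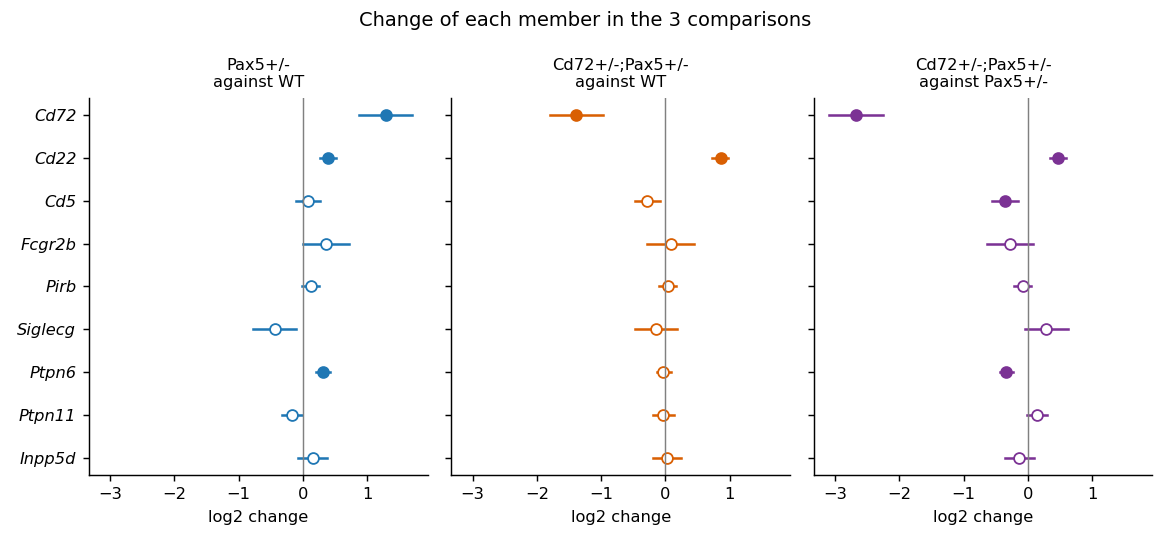
Log2 change of each member (horizontal axis) in the 3 comparisons, one panel each. Points are limma estimates, lines are 95% intervals, and filled points have an adjusted p under 0.05 over all clusters tested. Cd72 changes sign between Pax5+/- against WT (1.29) and Cd72+/-;Pax5+/- against WT (-1.39), while Cd22 is above 0 in all 3 panels.

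Pax5 itself (10512669) read 11.40 to 11.72 on the WT arrays, 10.65 to 11.21 on the Pax5+/- arrays and 11.11 to 11.31 on the Cd72+/-;Pax5+/- arrays. Its change against WT was -0.60 in the former (limma adjusted p = 0.0051) and -0.36, not called, in the latter (limma adjusted p = 0.0781). Xist, expressed from an inactive X chromosome, read 11.75 to 11.90 in Cd72+/-;Pax5+/- and 5.00 to 5.52 elsewhere, and the Y-linked Uty read 4.88 to 5.19 and 8.85 to 9.74. In both comparisons that use Cd72+/-;Pax5+/-, genotype and sex-linked signal therefore cannot be told apart, also for the members, all of which lie on autosomes. Markers of monocytes, macrophages and granulocytes had array means of 6.03 to 6.22, and WT arrays 1 to 4 read 6.21, 6.03, 6.22 and 6.04. Of these 15 genes 1, Itgam, was called in Pax5+/- against WT (0.89, limma adjusted p = 0.0382), against 7.47% of all clusters. That call ended with the closest pairs averaged (limma adjusted p = 0.571), and 0 of the 15 were called in the other comparisons. The stromal and endothelial list ranged from 7.46 to 7.89 in WT, 7.01 to 7.71 in Pax5+/- and 6.89 to 7.00 in Cd72+/-;Pax5+/-. Of its 15 genes only Alpl was called in Pax5+/- against WT (-3.78, limma adjusted p = 3.03e-09). In Cd72+/-;Pax5+/- against WT Alpl (-2.24), Sparc (-1.97) and Cxcl12 (-1.92) were called, and only Alpl was with the closest pairs averaged. At an unadjusted limma p under 0.05, 1 of the 15 was higher and 1 lower in Pax5+/- against WT. In Cd72+/-;Pax5+/- against WT 0 were higher and 9 lower by that rule. Between the mutant groups 1 was higher and 6 lower, and Alpl itself rose by 1.53 there (limma adjusted p = 7.66e-06). With the closest pairs averaged 1, 2 and 1 of the 15 had an unadjusted limma p under 0.05. The part of either list in the members' differences was not tested.

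The genes beside Cd72 on chromosome 4 were set against it because the label of the third group names a loss at this locus. How near the Pax5 locus, altered in both mutant groups, lies to these genes was not examined. Of the 5 genes on each side in RefSeq order, 8 had a cluster. Sit1, the next gene and itself an inhibitory transmembrane adaptor, fell in both mutant groups. Its means were 8.66 ± 0.0699 for WT, 8.18 ± 0.164 for Pax5+/- and 8.07 ± 0.0245 for Cd72+/-;Pax5+/- (SD, n = 4). The changes against WT were -0.48 (limma adjusted p = 0.000869) and -0.59 (limma adjusted p = 0.000179), and averaging the closest pairs ended neither call (0.0462 and 0.026). Between the mutant groups, where Cd72 fell by 2.68, the value for Sit1 was -0.11 (95% interval -0.27 to 0.05). Car9, a carbonic anhydrase, rose by 0.27 in Pax5+/- over WT (limma adjusted p = 0.0136) and was lower in Cd72+/-;Pax5+/- than in Pax5+/- (log2 change -0.28, limma adjusted p = 0.00868). Ccdc107 was higher in Cd72+/-;Pax5+/- than in Pax5+/- (0.25, limma adjusted p = 0.00647). Neither held with the closest pairs averaged (limma adjusted p = 0.241 and 0.177 for Car9 and 0.216 for Ccdc107), and with the pairs as a random block the Car9 calls ended too (0.101 and 0.0689). Tesk1, the neighbour on the other side, gave 0.20, -0.03 and -0.23 with no call, and Rusc2, Fam166b, Rmrp and Arhgef39 were not called either.

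**Figure D3:**
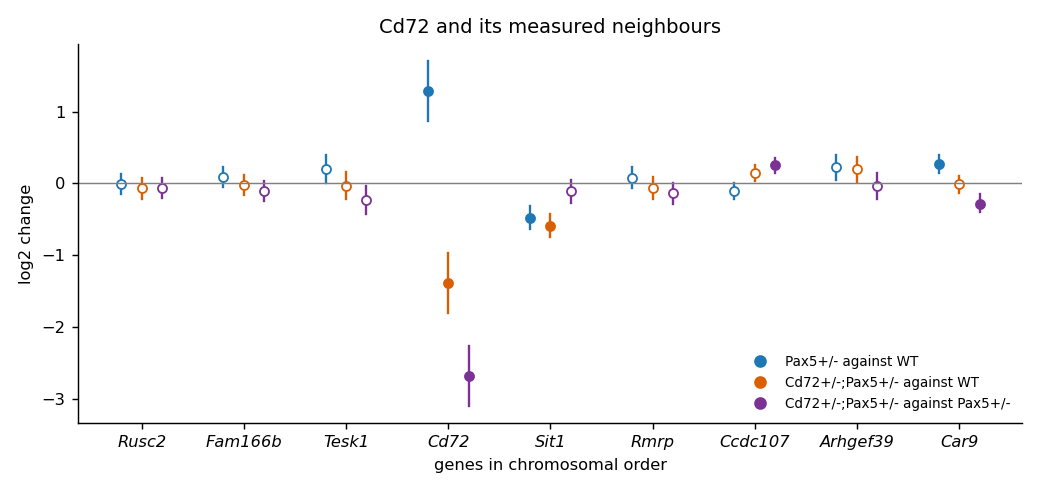
Log2 change (vertical axis) of Cd72 and its 8 measured neighbours in chromosomal order, in 3 comparisons shown by colour. Lines are 95% intervals, and filled points have a limma adjusted p under 0.05. The changes of Cd72, from -2.68 to 1.29, exceed those of each neighbour, and Sit1 is lower than WT in both mutant groups.

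The genes whose log2 signal followed a member most closely over the 12 arrays were named by Pearson's r among 19937 other genes. This is a description over 3 groups that differ, with no test. For Cd72 they were Pcdhb16 (r = 0.995), Zfp52 (0.986), Il10rb (0.983), Icam2 (0.982) and Qsox1 (0.979). Pcdhb16, a protocadherin, had means of 7.36 for WT, 8.83 for Pax5+/- and 5.82 for Cd72+/-;Pax5+/-, and Icam2, an adhesion molecule, 8.54, 8.91 and 8.06. For Cd22 they were Lhx2 (0.988), Sirpa (0.98), Dennd1a (0.978), Ifi208 (0.978) and Kif19a (0.969). Of these Sirpa encodes another ITIM receptor, and it read 7.44 to 7.56 in WT, 8.24 to 8.59 in Pax5+/- and 9.10 to 9.19 in Cd72+/-;Pax5+/-. For Ptpn6 they were Klhdc2 (0.971), Lta4h (0.969), Capn2 (0.966), Eif5a2 (0.96) and AI467606 (0.956). Their means in Pax5+/- were 8.82, 10.26, 7.98, 7.13 and 9.14 in that order, against 8.28, 9.56, 7.18, 5.81 and 8.64 in WT, as the choice by likeness to Ptpn6 fixes.

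Outside the 9 members, 28 of 29 listed inhibitory receptors and adaptors of leukocytes were measured. In Pax5+/- against WT 7 rose and 2 fell, in Cd72+/-;Pax5+/- against WT 3 rose and 5 fell, and between the mutant groups 3 were higher and 5 lower in Cd72+/-;Pax5+/-. Of all clusters tested, 7.47%, 7.78% and 9.79% were called in these comparisons, a smaller share than on this list. The list was chosen with earlier results of these data known, so the difference in share is no test of such receptors. The median change was 0.01, 0.02 and -0.03, near that of all clusters. Pdcd1, the checkpoint receptor PD-1 of the ITIM-bearing kind, rose by 1.02 in Pax5+/- over WT (limma adjusted p = 8.65e-07) and had a change of -1.02 in Cd72+/-;Pax5+/- against Pax5+/- (limma adjusted p = 8.3e-07). Its means of 6.71, 7.74 and 6.72 were thus highest in Pax5+/-, as those of Ptpn6 were. Sirpa rose by 0.92 and 1.64 over WT (limma adjusted p = 3.66e-06 and 1.96e-08). Cd33, a further sialic acid-binding receptor, rose by 0.92 in Pax5+/- (limma adjusted p = 0.00357), a call that ended with the closest pairs averaged (0.292). Slamf6, which has a switch motif rather than a classical ITIM, rose by 3.86 over WT and by 4.10 over Pax5+/- in Cd72+/-;Pax5+/- (limma adjusted p = 4.61e-10 and 2.63e-10). Lax1, a transmembrane adaptor that restrains antigen receptor signals, had changes of -1.27 against WT and -1.86 against Pax5+/- there (limma adjusted p = 2.87e-05 and 7.98e-07), and the change against WT was not called with the closest pairs averaged (0.0523). In that setting 3, 3 and 4 of the 28 were called.

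Of 20 listed ligands of the members and enzymes that modify those ligands, 18 were measured. In Pax5+/- against WT 4 rose and 3 fell, in Cd72+/-;Pax5+/- against WT 1 rose and 2 fell, and between the mutant groups 1 was higher and 4 lower. The share of all clusters called was 7.47%, 7.78% and 9.79% in that order. Sialic acid is the ligand of CD22 and Siglec-G, and the listed enzymes that make, attach or modify it did not move together: in Cd72+/-;Pax5+/- against WT Siae and St3gal1 were called, and St6gal1, St3gal4, Cmah, Cmas, Nans and Gne were not. Gne and Nans, which act early in its synthesis, were called in no comparison. Siae, the esterase that removes acetyl groups from sialic acid, rose from 5.89 ± 0.0753 in WT to 7.34 ± 0.0634 in Pax5+/- and 7.56 ± 0.0889 in Cd72+/-;Pax5+/- (SD, n = 4), changes of 1.45 and 1.66 (limma adjusted p = 6.97e-09 and 2.01e-09). St3gal1, a sialyltransferase, fell, with changes of -1.36 and -1.06 (limma adjusted p = 6.45e-07 and 6.63e-06). Cmah, the hydroxylase that forms the N-glycolyl type of sialic acid that mouse CD22 prefers, rose by 2.18 in Pax5+/- over WT (limma adjusted p = 0.000159) and had a change of -1.62 in Cd72+/-;Pax5+/- against Pax5+/- (limma adjusted p = 0.00139). The calls of Siae and St3gal1 against WT held with the closest pairs averaged (adjusted p = 0.00175 to 0.0189 by limma), and those of Cmah did not (0.112 and 0.192). Ighm, the IgM heavy chain, fell, with changes of -1.27 and -1.43 (limma adjusted p = 4.5e-06 and 1.87e-06).

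Of 25 listed phosphatases and adaptors that work beside the members, 24 were measured. In Pax5+/- against WT 6 rose and 1 fell, in Cd72+/-;Pax5+/- against WT 3 rose and 2 fell, and between the mutant groups 0 were higher and 6 lower by limma (1 and 6 at an unadjusted p under 0.05). Among all clusters 7.47%, 7.78% and 9.79% were called by limma in these comparisons. Inpp4b, a lipid phosphatase, fell, with changes of -1.47 and -1.77 against WT (limma adjusted p = 1.58e-09 and 2.55e-10). The related Inppl1, the close relative of Inpp5d, rose by 0.71 and 0.64 (limma adjusted p = 0.000113 and 0.000304), and Inpp4a rose by 0.65 in Pax5+/- (0.000535). Ptpn12, a tyrosine phosphatase, rose by 0.96 and 1.12 (limma adjusted p = 4.65e-06 and 1.38e-06). Between the mutant groups Ubash3a fell by 1.03, the inhibitory adaptor Dok3 fell by 1.00 and the ubiquitin ligase Cblb fell by 0.65 in Cd72+/-;Pax5+/- (limma adjusted p = 0.000115, 0.00156 and 0.00431). With the closest pairs averaged 2, 2 and 0 of the 24 were called by limma (6, 5 and 6 at an unadjusted p under 0.05). Inpp4b and Ptpn12 kept their calls against WT there, and Inppl1 (0.0562 and 0.0752) and Inpp4a (0.149) did not.

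Of 25 listed genes on the activating side of the B-cell receptor, 22 were measured. In Pax5+/- against WT 1 rose and 4 fell, in Cd72+/-;Pax5+/- against WT 2 rose and 3 fell, and between the mutant groups 7 were higher and 4 lower in Cd72+/-;Pax5+/-. The calls over all clusters came to 7.47%, 7.78% and 9.79% in that order. Prkcb, the kinase that relays the signal to NF-κB, fell by 1.16 in Pax5+/- against WT (limma adjusted p = 8.98e-06) and was higher in Cd72+/-;Pax5+/- than in Pax5+/- (0.79, limma adjusted p = 0.000195). Bank1, a scaffold, fell by 1.26 and then was 1.74 higher (limma adjusted p = 0.00101 and 5.9e-05). Both were thus lowest in Pax5+/-, where Cd72 and Ptpn6 were highest, and the difference between these genes was not tested. Blk, a Src-family kinase, was lower in Cd72+/-;Pax5+/- than in Pax5+/- (-1.37, limma adjusted p = 0.000673), and Pik3cd was higher (0.68, limma adjusted p = 0.000817). With the closest pairs averaged, 1, 0 and 0 of the 22 were called by limma (5, 4 and 12 at an unadjusted p under 0.05).

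**Figure D4:**
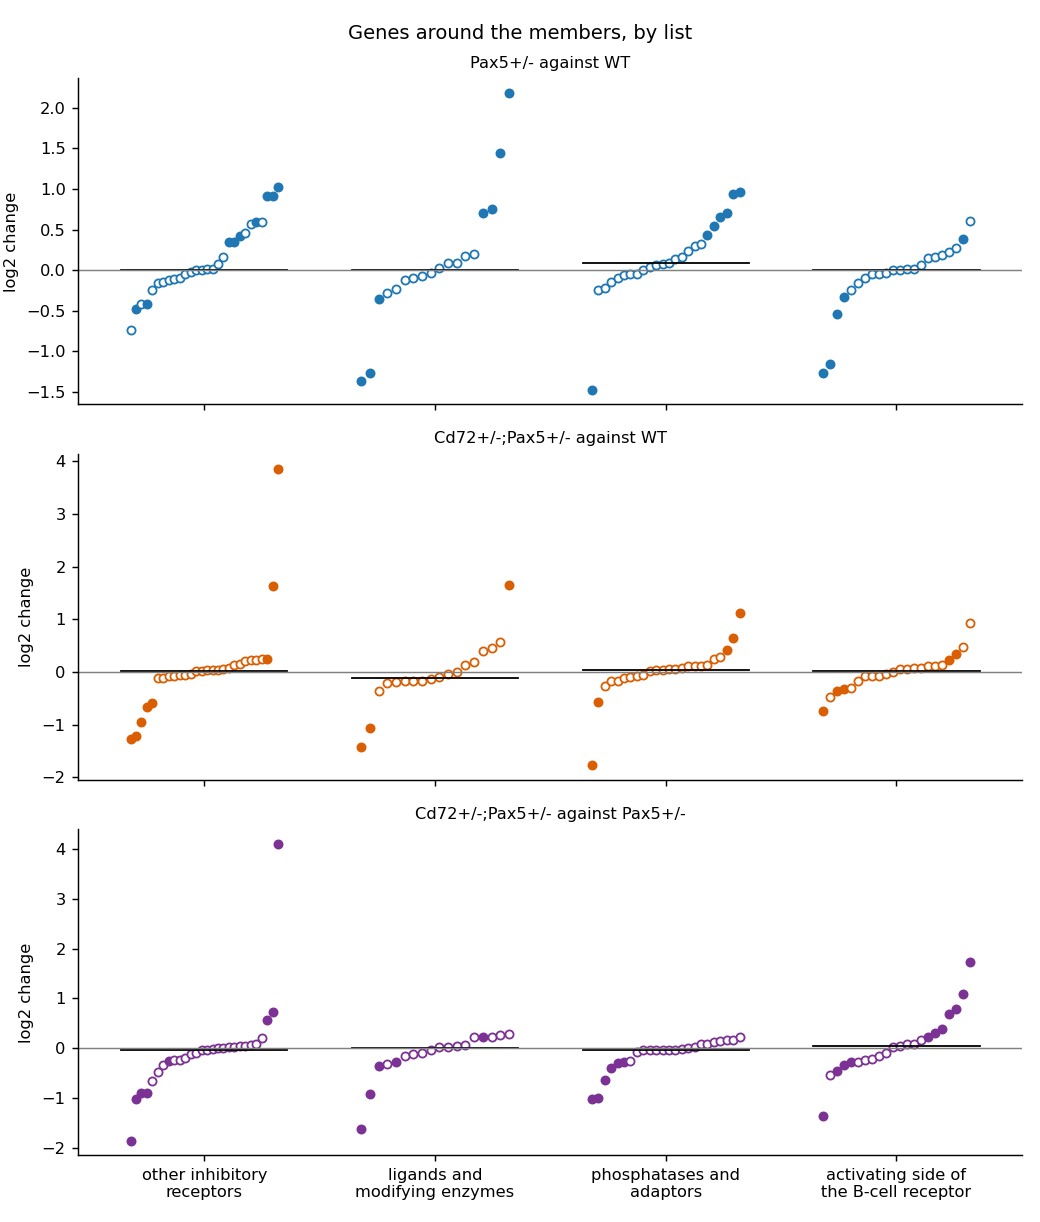
Log2 change (vertical axis) of every measured gene of 4 lists, ordered by size within each list, in 3 comparisons. Filled points have a limma adjusted p under 0.05 and horizontal black lines are list medians. The medians lie near 0 in all panels, and the called genes of a list fall on both sides of 0 except for the phosphatases and adaptors between the mutant groups, where 0 were called higher and 6 lower.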

How the data were processed

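Per the labels, total RNA of purified pro-B cells was extracted with TRIzol, fragmented, labelled with biotin and hybridised to 12 arrays, which the authors analysed in the Transcriptome Analysis Console. The deposited values are log2 signals, 1 per transcript cluster and array, from 3.67 to 14.73 with array medians of 6.91 to 7.005. How the authors corrected background, normalized and summarized probes, and on which genome build, is not given in the sources used here. Of 28944 clusters, 21789 carry 1 gene symbol, 1621 several and 5534 none. All 23410 that name a gene entered the test, unfiltered.

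A mean per group was fitted over all 12 arrays with limma 3.58.1 in R 4.3.3 (lmFit and eBayes, 9 residual and 3.28 prior degrees of freedom), with Benjamini-Hochberg adjustment over all tested clusters and calls at an adjusted p under 0.05. The fit was also run on simulated data with independent noise on each array. That run could not test how closeness within pairs of real arrays affects the calls. Arrays were numbered within groups in accession order, as names only, and the labels pair none across groups. Single members were compared by exact permutation. Tables and plots used Python 3.11.15, pandas 2.3.3, scipy 1.17.1 and matplotlib 3.10.9.

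Alternatives were quantile normalization, a common median, a dim-cluster filter, all clusters, a trended robust prior, only the compared groups, array weights, closest pairs averaged or as a random block, each array left out, other call rules and, added after the data were seen, either pair of WT arrays left out.

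The members and gene lists were chosen with earlier results of these data known. Genes outside the members were named by rule: up to 4 called genes with the smallest adjusted p in each list and comparison, 5 neighbours of Cd72 on each side, and the 5 genes most correlated with Cd72, Cd22 and Ptpn6. Neighbour order and upstream sequences came from RefSeq (GRCm38.p6). Listed genes that could not be matched to a cluster with 1 symbol were not analysed here.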

Additional observations from a re-analysis of the deposited data

How the results depend on the processing

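For Pax5+/- and then Cd72+/-;Pax5+/- against WT and last between the mutant groups, 3, 2 and 4 members and 1749, 1821 and 2292 clusters were called. With the closest pairs averaged 0, 1 and 1 members and 282, 290 and 420 clusters were called, and Cd72 kept its changes of 1.29 and -1.39 against WT but not its calls. That setting leaves 2 values per group. With the pairs as a random block 1133, 1031 and 1398 clusters were called. Under an unadjusted p under 0.05 with a change over 2-fold, the study's stated threshold if its p is unadjusted, 1, 1 and 1 members, Cd72 each time, and 224, 214 and 280 clusters passed. Array weights called 2787 clusters in Cd72+/-;Pax5+/- against WT. Without WT arrays 1 and 3, 5 members and 4184 clusters were called in Pax5+/- against WT, and without WT arrays 2 and 4, 3645 clusters in Cd72+/-;Pax5+/- against WT.

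Direction turned only for members that were not called in Cd72+/-;Pax5+/- against WT. With array weights Fcgr2b gave -0.05, Ptpn11 0.01 and Inpp5d -0.03. Without WT arrays 1 and 3 Siglecg gave 0.20, and without WT arrays 2 and 4 Fcgr2b gave -0.26, Ptpn11 0.10 and Inpp5d -0.11. With each array left out in turn, Fcgr2b ranged from -0.04 to 0.22, Inpp5d from -0.03 to 0.06, Ptpn11 from -0.10 to 0.04 and Ptpn6 from -0.06 to 0.00. Cd72 then ranged from 1.13 to 1.45, -1.54 to -1.22 and -2.73 to -2.62 and kept all calls. The causes were not tested. Using the mean of all clusters of a member was not run, because each member has 1 cluster of its own. No paired analysis was possible because the titles share no number between groups.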
